A study of Mus musculus with 9 samples.

Results

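A set of 10 genes of the Notch pathway and of the secretory fate decision it controls was followed through the series: the receptors Notch1 and Notch2, the ligands Dll1, Dll4 and Jag1, the effector Hes1, and the transcription factors Atoh1, Gfi1, Spdef and Neurog3. They were picked by gene symbol, as 10 of the 24930 rows of the deposited expression table, and their values were read in all 9 libraries. All 10 passed the filter on low values used for testing (at least 1 FPKM in at least 3 libraries), as did 12097 genes in all. FPKM is the number of sequenced fragments per kilobase of transcript, scaled between libraries, so levels can be set side by side between genes. No member passed the test in any comparison. Hes1 had the smallest difference from control when both mutant sets were pooled, Jag1 was the one member with an unadjusted p under 0.05 for both mutant sets against control, and Neurog3 varied most from library to library.

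In the series, poly(A) RNA was sequenced from mouse crypt epithelium after a gain-of-function mutation had been induced in 1 copy of Ctnnb1, which encodes β-catenin. There were 3 control libraries and 2 sets of 3 mutant libraries, and each group had 1 library at day 8, 1 at day 9 and 1 at day 10 after induction. By title, set A carries the β-catenin mutation on 1 allele (het) and set B carries it together with a het Cdx2 allele, but the library names put CDX2HET beside EXON3 in set A and EXON3 alone in set B. Which set is the Cdx2 heterozygote is therefore not settled by the labels, and the sets are called A and B by title only. The sources used here do not give the genotype of the controls, the Cre driver, the inducing agent, or the age and sex of the mice. Each library name has its own number, but nothing says that the libraries came from separate animals, so a p-value measures only the spread between these libraries.

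Notch signalling passes between neighbouring cells. A Delta or Jagged ligand on one cell binds a Notch receptor on the next, the receptor is cleaved by an ADAM protease and by γ-secretase, and its intracellular part joins the DNA-binding protein RBPJ to switch on target genes such as Hes1. In the intestinal crypt, HES1 represses Atoh1 and keeps cells in the stem or absorptive state, whereas cells that escape the signal express Atoh1 and its partners, display Delta ligands and become Paneth, goblet or enteroendocrine cells.

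The promoters of 4 genes are shown because their genes carry the results: Atoh1, the switch for secretory fate that HES1 represses; Jag1, the member with the lowest p-value against control; Neurog3, the member that varied most; and Nrarp, a feedback target of Notch that is no member and was chosen after its values were seen. Each runs 5′ to 3′ from 250 bases before the transcription start to 50 bases after it, as listed by RefSeq for GRCm38.p6, a later build than the mm9 named in the submitters' processing notes. Capitals mark matches on either strand to CACNAG, the N-box to which HES proteins can bind. The places are chr6:64728875-64729174 (+) for Atoh1, chr2:137116471-137116770 (−) for Jag1, chr10:62132840-62133139 (+) for Neurog3 and chr2:25180508-25180807 (+) for Nrarp.
Atoh1: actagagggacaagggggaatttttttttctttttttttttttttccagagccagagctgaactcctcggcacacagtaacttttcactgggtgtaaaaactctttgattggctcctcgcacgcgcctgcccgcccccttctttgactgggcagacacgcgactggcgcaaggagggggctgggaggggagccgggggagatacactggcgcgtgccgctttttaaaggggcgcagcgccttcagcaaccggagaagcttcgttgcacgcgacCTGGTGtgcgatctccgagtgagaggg
Jag1: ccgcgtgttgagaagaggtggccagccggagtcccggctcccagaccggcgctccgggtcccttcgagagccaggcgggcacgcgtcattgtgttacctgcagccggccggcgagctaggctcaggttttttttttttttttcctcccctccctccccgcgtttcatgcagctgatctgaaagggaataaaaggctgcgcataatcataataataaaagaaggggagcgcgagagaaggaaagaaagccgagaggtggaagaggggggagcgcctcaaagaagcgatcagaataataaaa
Neurog3: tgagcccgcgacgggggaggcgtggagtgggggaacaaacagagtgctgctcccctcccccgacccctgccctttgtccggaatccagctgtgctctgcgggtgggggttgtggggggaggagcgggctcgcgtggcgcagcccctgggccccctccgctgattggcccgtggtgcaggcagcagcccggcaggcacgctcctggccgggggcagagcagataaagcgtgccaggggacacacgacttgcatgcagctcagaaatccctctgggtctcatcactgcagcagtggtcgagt
Nrarp: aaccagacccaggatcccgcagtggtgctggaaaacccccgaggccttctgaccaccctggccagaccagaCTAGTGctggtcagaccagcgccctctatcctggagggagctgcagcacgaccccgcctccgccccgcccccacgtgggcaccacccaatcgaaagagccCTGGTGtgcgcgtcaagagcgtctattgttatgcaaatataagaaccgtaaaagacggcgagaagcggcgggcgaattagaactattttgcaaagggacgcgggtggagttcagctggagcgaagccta
Counting the transcription start as position 1 with no position 0, the Atoh1 match begins at 24 and the Nrarp matches at −179 and −79, and the Jag1 and Neurog3 windows hold none. A promoter was found for 9 of the 10 members (Hes1 was not matched), and 5 of these (Notch1, Notch2, Dll1, Dll4 and Atoh1) held an N-box, a motif present in 42.5% of 32851 promoters of the same length. Dll1 and Gfi1 had more than 1 window each, and not every Dll1 window held a match. The count by gene is therefore not on the same footing as the share by promoter. GTGGGAA, a form of the RBPJ site, was in none of the members' windows and in 6.38% of all promoters. A match is only a run of letters and says nothing about binding in these cells.

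Summed FPKM ran from 624923 to 755802 per library. With low values in a preset window taken as single fragments, 1 FPKM on a transcript of 1 kilobase rested on roughly 16.7 to 19.0 fragments. The window itself bounds that figure, so it is only a rough guide. The day-9 library of set B stood apart. On the first principal component of all tested genes (43.5% of the variance) it lay at −19.1, beside the controls (−22.7 to −21.6) and away from the other 5 mutant libraries (2.57 to 30.0). On the second component it lay at 29.9, apart from the controls (−14.9 to −5.96) and from the other 5 mutant libraries (−6.36 to 10.5). Xist, the long RNA of the inactive X chromosome, was at 0.10 FPKM there and at 27.0 to 39.4 in the other 8 libraries, and the Y-linked Eif2s3y was at 26.4 FPKM there and at most 0.0351 elsewhere. Results are therefore also given without that library where it changes a call. Among all tested genes 1.16% (140) passed limma's test for both sets against control, 0.215% (26) for set A and 0.628% (76) for set B, and 0% for set B against set A and for both tests of a trend over days, for which 376, 717 and 696 genes had an unadjusted p under 0.05. With that library left out, 8.29% passed for both sets against control (995 of 12000), and leaving out any other single library gave 17 to 114 genes. The epithelial label was checked by markers: Muc2 of goblet cells was at 93.0 to 167 FPKM, while the endothelial marker Pecam1 reached at most 0.284 and the fibroblast marker Col1a1 at most 1.17. T cells were not absent, since 10 T cell markers summed to 20.5 to 98.3 FPKM (Cd3e at most 3.17, Gzma at most 47.8). The 10 fibroblast markers summed to 41.5 to 88.4 FPKM, but Fbln1 alone reached 81.4. In each control 9 of the 10 were under 1 FPKM, and in the mutants 5 to 9. In the controls that sum therefore rested largely on 1 gene. Ctnnb1 itself lay at 187 to 207 FPKM in control and 211 to 239 in the mutant libraries, and a gene-level value does not show the mutation. With set B at day 9 left out, Cdx2 was higher than control in set B (0.67 on the log2(FPKM + 1) scale, adjusted p = 0.0261 in limma). For both sets the difference was 0.42 (adjusted p = 0.0401). Which set carries the het Cdx2 allele was not tested.

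**Figure D1:**
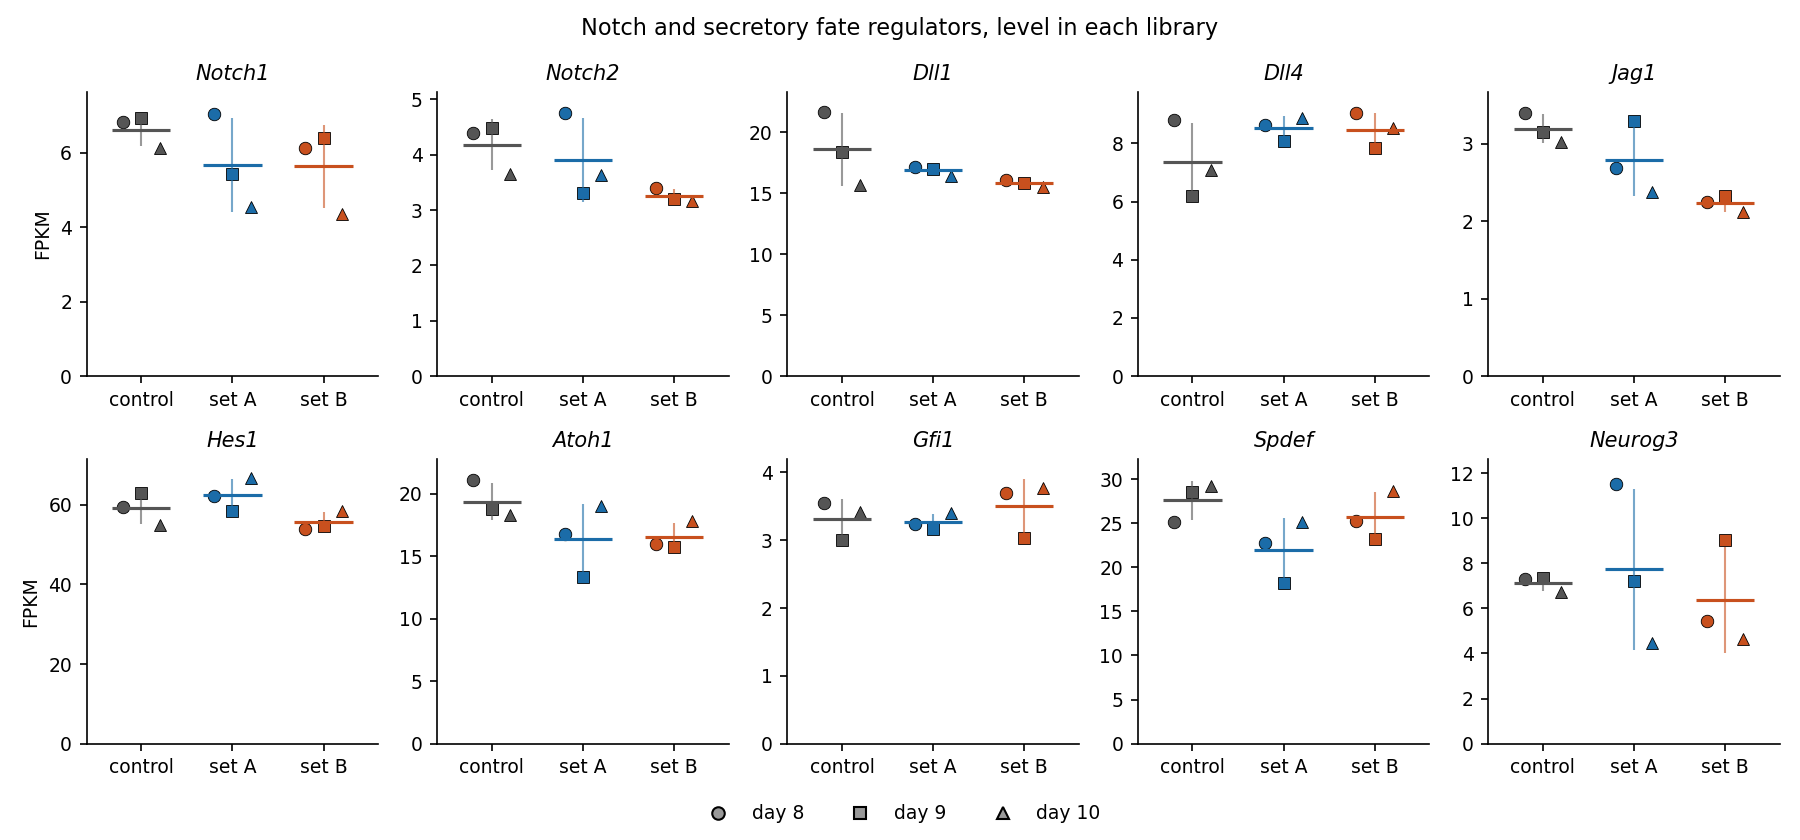
Level of each of the 10 genes in FPKM (vertical axes, each from 0) in the 3 control, 3 set A and 3 set B libraries. Symbols give the day, horizontal lines the group mean and vertical lines 1 SD; Hes1 stays between 53.9 and 66.6 in all 9 libraries, while Neurog3 spreads from 4.44 to 11.5 within set A alone.

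Over the 9 libraries the members ranked from Hes1, at a mean of 59.1 FPKM, through Spdef (25.1), Atoh1 (17.4), Dll1 (17.1), Dll4 (8.11), Neurog3 (7.07), Notch1 (5.98), Notch2 (3.78) and Gfi1 (3.36) to Jag1 (2.74). The range of Hes1 did not overlap that of Spdef, nor did that of Dll1 overlap that of Dll4. Every other pair of neighbours in this order had overlapping ranges, although Spdef was above Atoh1 and Notch1 above Notch2 in 9 of 9 libraries. Atoh1 and Dll1 could not be ranked, since Atoh1 was the higher in 4 of the 9. The Delta ligands were thus present at higher levels than the Jagged ligand, and of the receptors Notch1 was the more abundant.

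The receptors are the part of the pathway that receives the signal, and both are expressed in crypt progenitors, where they are known to act redundantly. Notch1 stood at 6.82, 6.93 and 6.12 FPKM in the control libraries of days 8, 9 and 10, at 7.04, 5.44 and 4.55 across set A, and at 6.13, 6.41 and 4.36 across set B. The 2 lowest values were the day-10 libraries of the mutant sets, and the highest was also a mutant library, so the groups overlapped. Both sets together averaged 5.65 ± 1.07 FPKM (SD, n = 6) against 6.62 ± 0.44 in control (SD, n = 3). On the log2(FPKM + 1) scale used for every difference below, Notch1 was lower by −0.21 ± 0.14 (SE; 95% interval −0.53 to 0.11), which did not pass in limma (adjusted p = 0.429). This scale understates differences of genes near 1 FPKM.

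Within set A Notch1 was lower on each later day, and within set B it was lower at day 10 alone, with a slope shared by the sets of −0.24 ± 0.061 per day. That slope had an unadjusted p of 0.00689 in limma, the smallest of any member in that test, but missed the threshold once adjusted over all genes (adjusted p = 0.759), as did every other gene. Its difference from the control slope was −0.17 ± 0.11 (adjusted p = 0.848). Each day rests on 1 library per group, so day and library cannot be told apart.

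T cell genes moved with Notch1. The summed FPKM of 10 T cell markers was 77.6, 98.3 and 57.6 across the controls, 72.1, 81.3 and 21.3 across set A, and 52.4, 77.4 and 20.5 across set B, so the 2 libraries lowest in Notch1 were also the 2 lowest in T cell markers. None of the 10 was at 0 in any library, but 7 of them were under 1 FPKM in each of those 2 libraries, against 1 to 3 in the rest. Over the 9 libraries, the correlation with Notch1 lay between 0.65 (Cd3d) and 0.91 (Itgae) for the 8 tested markers. Among 8849 genes with a mean of at least 5 FPKM, the gene whose pattern was most like that of Notch1 was Cd52, a lymphocyte surface antigen (r = 0.95), followed by Cxxc1 and Mbtd1 (both r = 0.94). These correlations are descriptions over 9 libraries that share depth and group, and the part of lymphocytes in the Notch1 level was not tested. Low values in the day-10 mutant libraries were not particular to T cell genes. Those 2 libraries were also lowest in summed tuft cell markers, at 19.2 FPKM in set A and 20.1 in set B. They were lowest too in the summed list of endocrine and tuft factors (40.6 and 42.3 FPKM). On the first principal component they lay furthest from the controls (30.0 and 29.7). In bulk RNA, fewer cells of a type and less RNA per cell cannot be told apart, here or in any result below.

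Notch2 was measured at 4.40, 4.48 and 3.65 FPKM across the controls, 4.76, 3.31 and 3.64 across set A, and 3.40, 3.20 and 3.16 across set B. All 3 set B libraries lay below every control, and the day-8 library of set A lay above all the others. Set B differed from control by −0.28 ± 0.12 (unadjusted p = 0.0465, adjusted p = 0.295 in limma) and set A by −0.086 ± 0.12 (adjusted p = 0.752). For the size of that overlap pattern among all genes, 12.5% of tested genes had all set B libraries below control and 9.81% had all of them above. The other receptors were scarce, with Notch4 at 1.03 to 1.48 FPKM and Notch3 at 0.0674 to 0.183 and so not tested.

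**Figure D2:**
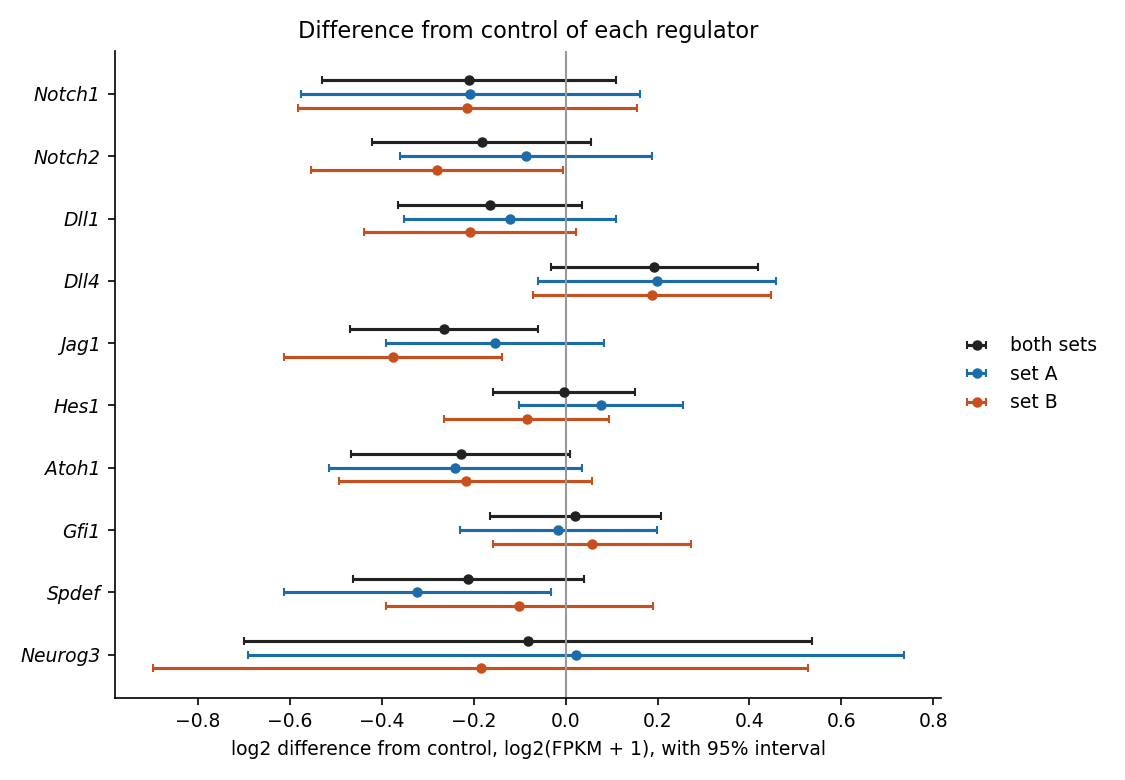
Difference from control of each gene on the log2(FPKM + 1) scale (horizontal axis), for both mutant sets together, set A and set B. Points are limma estimates and bars 95% intervals; the Jag1 bar of both sets ends at −0.060, just short of 0, and the Neurog3 bar is the widest, from −0.70 to 0.54.

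Among the ligands, Dll1 and Dll4 are the pair that crypt secretory cells, including Paneth cells, present to their neighbours. Dll1 was at 21.7, 18.4 and 15.7 FPKM across the controls, 17.1, 17.0 and 16.4 across set A, and 16.1, 15.9 and 15.5 across set B. The 6 mutant libraries lay within 15.5 to 17.1 FPKM, close to the lowest control and below the other 2. The difference of both sets from control was −0.17 ± 0.087 (95% interval −0.36 to 0.035, adjusted p = 0.316 in limma). It was −0.054 without the control of day 8 and −0.28 without that of day 10. Each group was lower on each later day, the controls by the most, and the slope of the mutants exceeded theirs by 0.19 ± 0.055 per day (unadjusted p = 0.0116, adjusted p = 0.818 in limma).

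Dll4 was the ligand with higher values in the mutant sets. It stood at 8.82, 6.18 and 7.09 FPKM across the controls, 8.64, 8.07 and 8.86 across set A, and 9.03, 7.83 and 8.51 across set B. The control of day 8 was as high as the mutants while the other 2 controls lay below all 6. The estimates were alike in the 2 sets, 0.20 ± 0.11 in A and 0.19 ± 0.11 in B, and together gave 0.19 ± 0.098 (95% interval −0.031 to 0.42, adjusted p = 0.298 in limma). Without the control of day 8 it was 0.32, and without that of day 9 it was 0.089. Both estimates rest on the same 3 controls.

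Jag1, a ligand of the other structural class, was the lowest of the 10 genes and the one with the clearest difference from control. Its values were 3.40, 3.16 and 3.03 FPKM across the controls, 2.69, 3.29 and 2.38 across set A, and 2.25, 2.33 and 2.12 across set B. All of set B and 2 libraries of set A lay below the lowest control, and the day-9 library of set A lay within the control range. Among all tested genes 12.5% had every set B library below control. Both sets averaged 2.51 ± 0.43 FPKM (SD, n = 6) against 3.20 ± 0.19 (SD, n = 3). The difference was −0.26 ± 0.090 (95% interval −0.47 to −0.060; unadjusted p = 0.0174, adjusted p = 0.154 in limma). In set B alone it was −0.38 ± 0.10 (95% interval −0.61 to −0.14; unadjusted p = 0.00615, adjusted p = 0.150), the lowest unadjusted p of any member against control. Set B against set A gave −0.22 ± 0.10 (unadjusted p = 0.0627). Weighting the libraries by their scatter took the set B value past the threshold at −0.37 ± 0.080 (adjusted p = 0.0210), the single member call under any of the settings tried. That setting also took many more of all tested genes past the threshold for set B than the 76 of the main fit, as counted in the closing section. Within set B the day-8 library had a weight of 4.06, against 0.32 at day 9 and 0.99 at day 10, so the weighted estimate leans on 1 library. The remaining ligands were low: Dll3 ran from 1.33 to 2.34 FPKM and Jag2 from 0.70 to 1.41.

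Hes1, the repressor through which Notch holds back secretory fate, was the most abundant and the steadiest of the 10. It stood at 59.4, 63.1 and 55.0 FPKM across the controls, 62.1, 58.5 and 66.6 across set A, and 53.9, 54.5 and 58.5 across set B. Its coefficient of variation over the 9 libraries was 7.27%, the lowest among the members. Set A was centred slightly above the controls and set B slightly below, with wide overlap. Both sets averaged 59.0 ± 4.79 FPKM (SD, n = 6) and the controls 59.1 ± 4.05 (SD, n = 3). The estimated difference was −0.0041 ± 0.068 (95% interval −0.16 to 0.15, adjusted p = 0.980 in limma), and its sign turned when the libraries were rescaled to equal totals (0.036). Set B lay below set A by −0.16 ± 0.078 (unadjusted p = 0.0697).

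**Figure D3:**
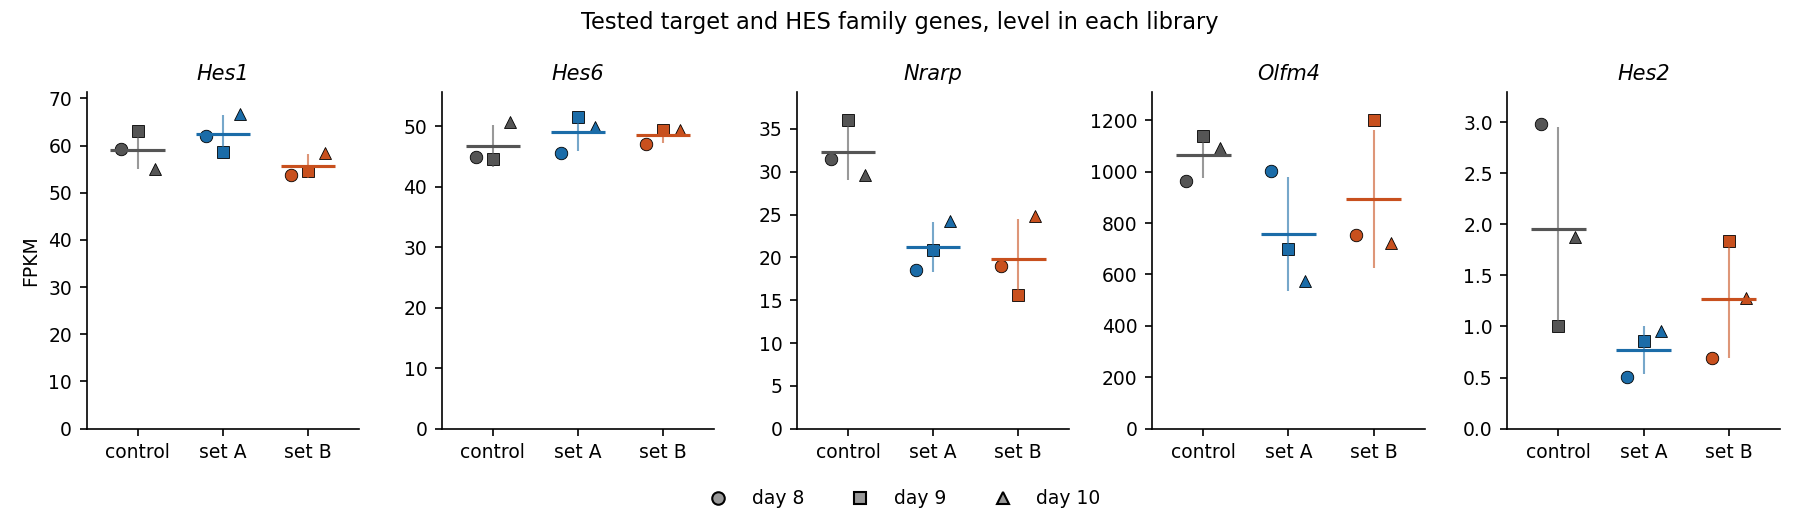
Level in FPKM (vertical axes, from 0) of the 5 Notch target and HES family genes that could be tested, by group and day, with group means (horizontal lines) and 1 SD (vertical lines). Nrarp lies at 15.6 to 24.8 in the 6 mutant libraries and at 29.6 to 36.0 in the controls, while Hes1 and Hes6 overlap between groups.

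The rest of the target list was read beside Hes1. Of its 14 genes 5 could be tested, 1 of these had a positive and 4 a negative difference for both sets against control, and none passed; their median was −0.41 against −0.0017 over all tested genes. Nrarp, which encodes an ankyrin repeat protein that binds the cleaved receptor and limits its own induction, was at 31.4, 36.0 and 29.6 FPKM across the controls, 18.5, 20.8 and 24.3 across set A, and 19.0, 15.6 and 24.8 across set B. All 6 mutant libraries lay below every control, a pattern shown by 7.37% of tested genes (5.19% showed the reverse). The sum of 13 stress response and immediate early genes split the libraries in the same way, at 346 to 376 FPKM in control and 435 to 497 in the mutants, with 2 of 11 tested genes higher by the test for both sets, and its part in the Nrarp level was not tested. The difference was −0.65 ± 0.14 (95% interval −0.97 to −0.32; adjusted p = 0.0721 in limma). With the day-9 library of set B left out it was −0.57 ± 0.12 and passed (adjusted p = 0.0322). It was alike in the sets, at −0.59 ± 0.16 in A (adjusted p = 0.159) and −0.70 ± 0.17 in B (adjusted p = 0.113). Olfm4, a stem cell gene known to depend on Notch, overlapped between groups, at 964 to 1139 FPKM in control and 573 to 1202 in the mutants. Hes6, a HES family member that does not act as Hes1 does, ranged from 44.5 to 51.5 FPKM over all libraries.

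Atoh1, the transcription factor needed for the secretory lineages of the gut, was at 21.1, 18.8 and 18.3 FPKM across the controls, 16.8, 13.4 and 19.0 across set A, and 16.0, 15.7 and 17.8 across set B. Of the 6 mutant libraries 5 lay below the lowest control, the exception being set A at day 10. The averages were 16.4 ± 1.93 FPKM (SD, n = 6) and 19.4 ± 1.49 (SD, n = 3), and the difference of −0.23 ± 0.10 (95% interval −0.47 to 0.0099) did not pass in limma (unadjusted p = 0.0582, adjusted p = 0.255). The sets gave near-equal values, −0.24 ± 0.12 in A and −0.22 ± 0.12 in B. Set A alone overlapped with control, as it did for every member. Among all tested genes 12% had every set A library above control and 13% had every one below.

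Spdef acts after Atoh1 in the maturation of goblet and Paneth cells. It was at 25.1, 28.5 and 29.2 FPKM across the controls, 22.7, 18.2 and 25.1 across set A, and 25.2, 23.2 and 28.7 across set B. The day-9 library of set A was the lowest for Spdef as it was for Atoh1, and over the 9 libraries these were the members' next most correlated pair after Notch1 and Neurog3 (r = 0.73). Set A differed from control by −0.32 ± 0.13 (95% interval −0.61 to −0.033), the lowest unadjusted p for that set (0.0331, adjusted p = 0.260 in limma), and set B by −0.10 ± 0.13 (adjusted p = 0.724). The difference between the sets was 0.22 ± 0.13 (unadjusted p = 0.116), so they were not shown to differ.

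Gfi1, a repressor that steers secretory progenitors away from the endocrine route, was at 3.55, 3.00 and 3.41 FPKM across the controls, 3.24, 3.17 and 3.40 across set A, and 3.69, 3.04 and 3.78 across set B. The groups overlapped throughout, and the difference of both sets from control was 0.021 ± 0.081 (95% interval −0.17 to 0.21, adjusted p = 0.907 in limma). Gfi1 and Neurog3 had the most negative correlation of any pair of members (r = −0.64 over 9 libraries, as a description).

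The mature cells these factors lead to did not follow one course. Of 14 Paneth cell markers, 5 fell and none rose when both sets were pooled against control (1.16% of all tested genes passed), 7 fell with set B at day 9 left out (8.29% of all genes), and none passed in set A or in set B alone with all libraries. The summed marker level was 58984 to 100094 FPKM in control and 17090 to 39959 in the mutants; Lyz1, the lysozyme of Paneth cells, was at 6449 to 8820 and 2091 to 4252. The 12 goblet markers, which include Atoh1, summed to 7943 to 10211 FPKM in control and 7689 to 10384 in the mutants, with 1 of 12 higher and none lower by the test, and with 1 higher and 1 lower when set B at day 9 was left out. Their median log2(FPKM + 1) did not overlap, at 7.84 to 7.87 in control and 6.60 to 7.28 in the mutants, and 9 of the 12 differences were negative. The median of the 12 differences was small, at −0.084. With set B at day 9 left out it was −0.020, with 6 positive and 6 negative, so a fall across the goblet list was not shown. How far either cell type's share bears on the levels of Atoh1, Spdef or Gfi1 was not tested. Of the 15 early secretory, Paneth and goblet factors listed, all 15 were tested and none passed, with 9 positive and 6 negative differences for both sets. With set B at day 9 left out, Elf3 rose (0.44, adjusted p = 0.0135 in limma) and so did Tcf7l2 (0.57, adjusted p = 0.0298). Elf3, an ETS factor of epithelial differentiation, was at 379 to 418 FPKM in the 5 other mutant libraries, 298 in the one left out, and 273 to 302 in the controls. Tcf7l2, the main DNA-binding partner of β-catenin in the gut, was at 10.5 to 13.4 FPKM in control, 12.9 in that library and 16.6 to 21.5 in the other mutants.

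Neurog3 marks the short-lived progenitor of enteroendocrine cells. Its values were 7.30, 7.33 and 6.73 FPKM across the controls, 11.5, 7.22 and 4.44 across set A, and 5.42, 9.05 and 4.64 across set B. The 3 controls were close together, while the mutant libraries spread on both sides of them, 2 above the highest control and 3 below the lowest. The coefficient of variation over all libraries was 31.4%, the highest among the members. With that spread the mean difference was −0.082 ± 0.27 (95% interval −0.70 to 0.54, adjusted p = 0.889 in limma), and the sets gave 0.022 ± 0.31 and −0.18 ± 0.31. The slope over days in the mutants, −0.35 ± 0.17 per day, did not pass (unadjusted p = 0.0806, adjusted p = 0.759). In set B the day-9 library, which stood apart, held the highest value, and without it set B lay at −0.43 ± 0.30 from control (adjusted p = 0.432).

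Other transcription factors of the enteroendocrine lineage had similar patterns over the libraries. Insm1, a zinc finger factor of endocrine precursors, was at 4.81, 4.90 and 4.04 FPKM across the controls, 5.64, 3.42 and 2.69 across set A, and 2.84, 5.56 and 2.72 across set B. Fev, a serotonin lineage factor, was at 4.35, 4.03 and 4.62 FPKM across the controls, 8.45, 4.13 and 3.92 across set A, and 3.82, 6.63 and 3.53 across set B. Both were highest in the same 2 mutant libraries as Neurog3. Correlations with Neurog3 over the 9 libraries were 0.92 for Insm1, 0.90 for Rfx6, 0.88 for Pax4 and for Fev, 0.85 for Sox4, 0.81 for Nkx2-2, 0.79 for Neurod1 and 0.72 for Pou2f3, a tuft cell factor. None of the 9 tested genes of the endocrine and tuft list passed for both sets against control, with 3 positive and 6 negative differences. The summed level of 16 enteroendocrine markers moved the same way: 511, 523 and 481 FPKM across the controls, 668, 423 and 308 across set A, and 365, 612 and 369 across set B, with no marker at 0 in any library. Chga, the chromogranin of their granules, was at 48.4 to 51.3 FPKM in control and reached 119 in set A at day 8 and 131 in set B at day 9. By the test none of the 16 markers passed for both sets or for set B. In set A 1 was lower (0.215% of all tested genes passed). With set B at day 9 left out, 1 was higher and 1 lower for both sets (8.29% of all genes passed). Whether the Neurog3 level followed the number of endocrine cells caught in each library was not tested.

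**Figure D4:**
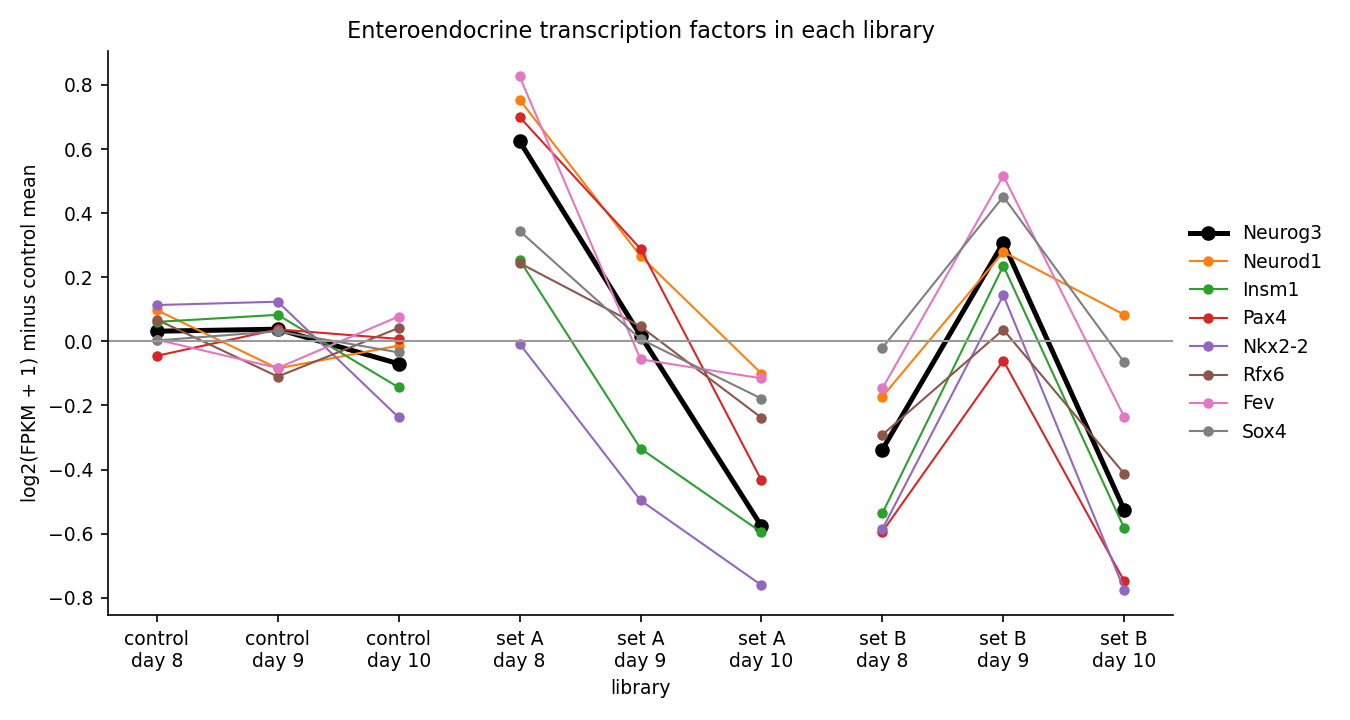
Neurog3 (thick black line) and 7 enteroendocrine transcription factors in each library, as log2(FPKM + 1) minus the mean of the 3 controls (vertical axis); lines join the days of a group only to guide the eye. In set A every gene shown is highest at day 8, and in set B every one is highest at day 9.

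**Figure D5:**
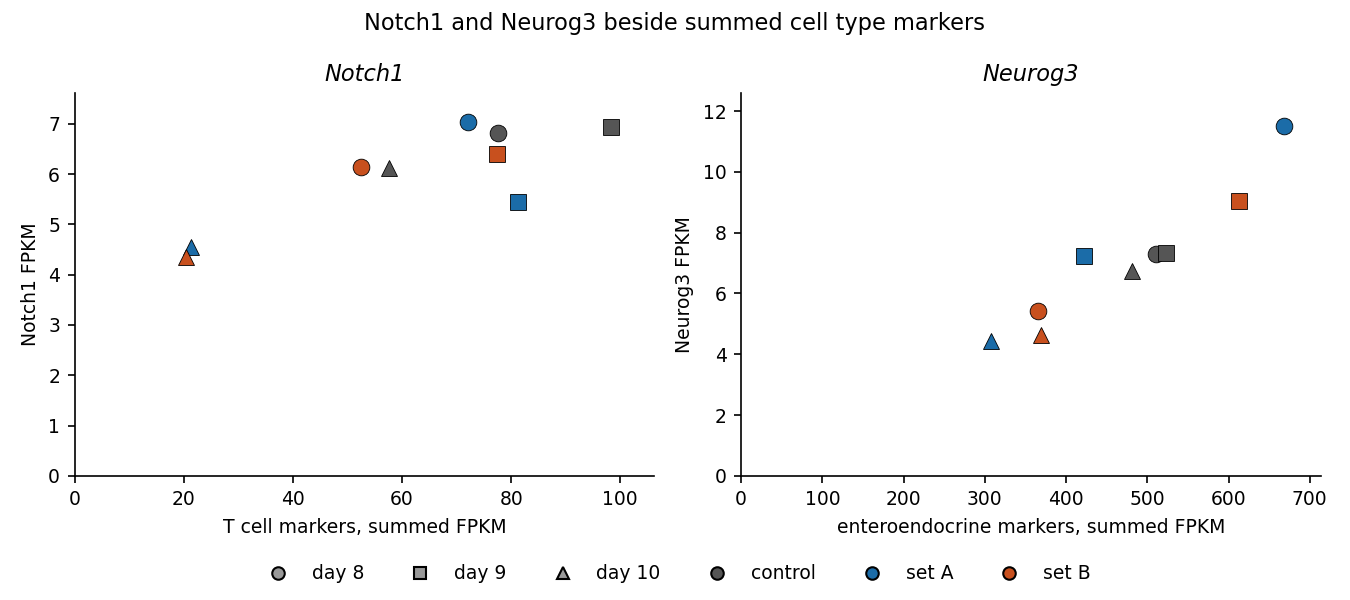
Notch1 against the summed FPKM of T cell markers (left) and Neurog3 against that of enteroendocrine markers (right), 1 point per library, all axes from 0. The 2 libraries lowest in Notch1, at 4.36 and 4.55 FPKM, have T cell sums of 20.5 and 21.3, and Neurog3 is highest where the enteroendocrine sum is highest, at 668.

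The closest matches in pattern of 8 other members were genes of mixed function, given as a description over 9 libraries. For Notch2 the nearest were Clca3a2 (r = 0.95), Slc15a4 and Clca3b, for Dll1 4932438A13Rik (0.94), Caskin2 and Kdm5b, and for Dll4 Stx5a (0.95), Rdh14 and Rock2. Those of Jag1 were Mapk14 (0.97), Cdkn2d and Gm8989, and those of Hes1 Marcks (0.93), Zxdc and Arfgap2. Atoh1 was followed most closely by Fam91a1 (0.98), Ago2 and Ccny, and Spdef by H3f3a (0.96), Kpna1 and Heatr1. Gfi1 was nearest to Oas3 (0.96), Tmed5 and Lman1. Between members the closest pair was Notch1 and Neurog3 (r = 0.80), both low in the day-10 mutant libraries. The pair of Atoh1 and Spdef ranked next (0.73), and then the pair of Dll1 and Jag1 (0.70).

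The remaining machinery of the pathway gave few further differences. Of 100 listed genes for receptors, ligands, processing, inhibitors, the nuclear complex, targets and lineage factors, 73 could be tested. None passed in limma for both sets against control, set A, set B or set B against set A, and 9 of the 73 had an unadjusted p under 0.05 for both sets, against 21.0% of all tested genes. There were 34 positive and 39 negative differences with a median of −0.020. With set B reduced to its day-8 and day-10 libraries, 5 of the 73 passed, 3 higher and 2 lower, against 8.29% of all genes. Besides Elf3, Tcf7l2 and Nrarp these were Ncstn, a subunit of γ-secretase (0.39, adjusted p = 0.0450), and Neurl1b, a ubiquitin ligase that acts on ligands (−0.48, adjusted p = 0.0162). Ncstn was at 85.4, 68.3 and 69.4 FPKM across the controls, 89.9, 97.3 and 104 across set A, and 94.3, 82.3 and 99.9 across set B. Neurl1b was at 4.28, 3.90 and 3.61 FPKM across the controls, 2.93, 3.17 and 2.98 across set A, and 2.13, 3.14 and 2.04 across set B. Every mutant library lay below every control, a pattern shown by 7.37% of tested genes. Rbpj, the DNA-binding partner of the receptor, was at 8.27 to 8.86 FPKM in control and 7.26 to 8.69 in the mutant libraries (adjusted p = 0.217, not passing).

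For the 10 members together, 2 differences of both sets from control were positive and 8 negative, with a median of −0.17 against −0.0017 for all tested genes. An unadjusted p under 0.05 was reached by 1 member (Jag1) and by 21.0% of all tested genes. For set A the split was 3 positive and 7 negative, with 1 such p (Spdef), and for set B 2 and 8, with 2 (Jag1 and Notch2), both against the same controls. Set B against set A gave 3 and 7, with the unadjusted p no lower than 0.0627 (Jag1). Dropping set B at day 9 brought no member past the threshold; Jag1 then had the lowest adjusted p, 0.115 for both sets and 0.0985 for set B. The estimates for both sets were then −0.25 for Notch1, −0.21 for Atoh1, −0.20 for Neurog3 and 0.0028 for Hes1.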

How the data were processed

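Poly(A) RNA was sequenced paired-end, per the labels' protocols. The authors deposited 1 table of FPKM for 24930 gene symbols and 9 libraries. The unit is not named in the sources used here and was read from the values, which are not whole and whose sums differ between libraries. The median ratio to the geometric mean is 1.00276 in every library. The libraries were thus scaled to an equal median ratio and not to an equal sum. Named in the submitters' processing notes are the quantifier kallisto 0.46.1, the build mm9 and DESeq2 1.40.1, with no role or order.

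Differences were tested with limma 3.58.1 in R 4.3.3 (trend and robust options) on log2(FPKM + 1), over the 12097 genes that reached 1 FPKM in 3 libraries or more, with Benjamini-Hochberg adjustment over all of them and a threshold of 0.05. The group means of all 9 libraries were fitted, and a model with added slopes, 1 for control and 1 shared by the mutants, gave the trends over days. Tests are two-sided. All 10 members are named in each comparison. Of the pathway lists the rule names every gene that passes, up to 4 per list; likeness was ranked by Pearson's r on the same scale. The likeness result of Neurog3 is not reported here. Members and lists were chosen with earlier results of these data known, and Nrarp, Insm1, Fev, Rbpj and others were picked after their values were seen. The test was tried on simulated data for the comparison of both sets with control (10 runs over 12097 genes, 200 changed): it found 84.6% of genes given a log2 change of 1 and 94.9% of those given 2, with 5.64% of its calls false. Smaller differences, such as the members', were not simulated. The simulated noise was independent between libraries, with 1 spread per gene. The real libraries scattered unequally (weights of 0.32 to 4.06), so these rates may not carry over to them. Alternatives were another pseudocount, other filters, rescaling to equal totals, a block by day, library weights and leaving out each library.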

Additional observations from a re-analysis of the deposited data

Results flagged for a closer look

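Notch2 in the day-8 library of set A, at 4.76 FPKM, lay far from the other 5 mutant libraries (3.16 to 3.64 FPKM) by Dixon's test over the 6, the single such value among 11 genes looked at. Chance flags about 1 in 20 groups. Among the controls Notch2 ran from 3.65 to 4.48 FPKM, so that library lay above all of them as well. The 5 remaining mutant libraries lay below every control.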

How the results depend on the processing

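No member passed under any of the settings tried, except Jag1 in set B with library weights (1 member). With library weights 1438 genes passed for both sets against control, 44 for set A, 2035 for set B and 3 for set B against set A, and 6 pathway genes passed for both sets and 10 for set B; a pseudocount of 0.1 gave 2 for set B against set A, and no filter gave 80 for both sets. The estimate of library weights stopped before convergence for the slope model, so that alternative was not run there. Leaving out 1 library at a time gave 17 (without control at day 10) to 995 genes (without set B at day 9) for both sets, 3 to 126 for set A, 18 to 483 for set B, 0 to 2 for set B against set A and 0 to 2 for the slope difference; pathway genes ranged from 0 to 5, 0 to 1 and 0 to 2 for both sets, A and B. With the day as a replicate block, 97, 16 and 63 genes passed for both sets, A and B, and no member. Same-day deviations from the group mean correlated at 0.62 (day 10) and 0.40 (day 9) between sets A and B, the highest of all pairs, but at −0.018 at day 8. Between either set and control the same-day values ran from −0.24 to 0.070. The mutant sets thus deviated together on days 9 and 10, and a pairing by day that includes the controls was not shown. Equal totals shifted the median by 0.037 for both sets and turned the sign of Hes1 (0.036), of Gfi1 in set A (0.034), of Atoh1 between the sets (−0.022), of the slopes of Hes1 (−0.020) and Gfi1 (−0.038) and of the slope differences of Notch2 (−0.020) and Jag1 (−0.0065). Library weights turned Notch1 (0.0016) and Dll4 (0.062) between the sets. The causes were not tested. Leaving out 1 library turned small estimates, whose ranges were, for both sets, −0.055 to 0.043 (Hes1), −0.034 to 0.060 (Gfi1) and −0.23 to 0.068 (Neurog3). For set A they were −0.21 to 0.0011 (Notch2), −0.071 to 0.023 (Gfi1) and −0.28 to 0.32 (Neurog3). Between the sets they were −0.13 to 0.14 (Notch1), −0.054 to 0.038 (Dll4), −0.11 to 0.13 (Atoh1), −0.51 to 0.094 (Neurog3) and −0.28 to 0.042 (Nrarp). For slopes they were −0.048 to 0.035 (Dll4), −0.094 to 0.019 (Jag1), −0.0030 to 0.15 (Atoh1) and −0.021 to 0.071 (Gfi1). For slope differences they were −0.12 to 0.14 (Notch2), −0.18 to 0.44 (Dll4), −0.030 to 0.083 (Jag1), −0.031 to 0.25 (Hes1), −0.12 to 0.21 (Gfi1) and −0.10 to 0.055 (Spdef). Without turning, the estimates for both sets moved by over 1.5 times for Notch1 (−0.28 to −0.14), Dll1 (−0.28 to −0.054) and Dll4 (0.089 to 0.32). By the rough guide given above, 1 FPKM on a kilobase of transcript rested on 16.7 to 19.0 fragments, which would limit the precision of low genes.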
